A study of Mus musculus with 6 samples.

Results

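The growth hormone, STAT5 and IGF1 axis was followed through 10 transcripts in mouse liver: the receptors *Ghr* and *Prlr*, the kinase *Jak2*, the transcription factors *Stat5a* and *Stat5b*, the pathway targets *Socs2*, *Cish* and *Bcl6*, and the secreted products *Igf1* and *Igfals*. They were chosen by gene symbol, and all 10 were found among the 24346 genes of the deposited table. RNA from whole liver had been sequenced in 6 male C57/BL6 mice, 3 *med23* f/f controls (labelled wt) and 3 *med23*Δli mice (labelled med23 ko), with 1 library for each mouse. All 6 mice were 8 weeks old, and all had received CCl4 at 0.6 μl per g body weight, in sunflower oil, 24 hours before the liver was taken. CCl4 is a toxin that becomes a reactive radical inside hepatocytes, above all in those close to the central vein. MED23 is a subunit of Mediator, the complex that links transcription factors to RNA polymerase II. Both groups carry floxed *Med23* alleles, and in *med23*Δli mice a Cre driven by the *Albumin* promoter deletes the floxed part in hepatocytes, while the other cells of the liver keep the gene. Livers without CCl4 were not analysed here, so each difference below is one between the 2 genotype labels after injury. At the same time point the paper describes marked necrosis in control livers and hardly any in *med23*Δli livers, with fewer apoptotic cells. Injury after the same dose thus differed by genotype in that work, and its part in the results below was not tested.

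Growth hormone from the pituitary binds its receptor on hepatocytes, the receptor-bound kinase JAK2 phosphorylates STAT5A and STAT5B, and these enter the nucleus and switch on target genes. Among the targets are *Igf1*, which encodes the circulating growth factor IGF1, *Igfals*, which encodes the protein that holds IGF1 in a stable complex in blood, and *Socs2* and *Cish*, whose products act back on the receptor and dampen the signal. *Bcl6* encodes a repressor that competes with STAT5 for the same DNA sites and is itself lowered by STAT5. In male rodents the pituitary releases growth hormone in pulses with gaps between them, and that pattern sets the difference between male and female liver for many cytochrome P450 and urinary protein genes.

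The deleted gene was examined first. *Med23* (ENSMUSG00000019984.16, mm10 chr10:24869986-24913681) had FPKM values of 3.42, 2.97 and 4.14 in the controls, against 3.40, 3.40 and 2.91 in the livers labelled med23 ko. FPKM is the number of fragments divided by transcript length and by library size, so levels can be compared between genes, but the values do not give the read depth of each library; the study's methods state only a median over samples. The 2 groups overlapped, with a log2 fold change of −0.11 (SE 0.17) and an adjusted p of 0.685 from limma, and the exact permutation test (two-sided) had p = 0.4. The level of the whole transcript therefore did not separate the labels, and the groups are named by their labels throughout. A value per gene does not show whether the floxed exons were read.

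Summed FPKM ran from 591848 to 651193, and the 10 most abundant genes took 17.1% to 20.3% of it in the control livers and 11.9% to 13.7% in the livers labelled med23 ko. The 10 hepatocyte markers, *Alb* among them, were abundant in every library, with sums of 25876 to 36731 FPKM in the controls and 22578 to 29161 FPKM in the livers labelled med23 ko. All 6 endothelial markers were lower in the livers labelled med23 ko (sums of 81.4 to 118.9 FPKM against 43.7 to 46.9 FPKM). Of the 7 tested markers of pericentral hepatocytes, 4 were higher (sums over the list of 428 to 604 FPKM against 1144 to 1263 FPKM), and of 8 periportal markers 3 were lower (1379 to 1729 FPKM against 1225 to 1727 FPKM). Over all genes tested 11.6% were higher and 9.48% lower, by the test described with the first result. Replicate 2 labelled med23 ko stood apart in adipocyte genes, with 2.29 FPKM of *Ucp1*, 2.76 FPKM of *Plin1* and 5.65 FPKM of *Adipoq*, while the first pair were listed at 0 in the other 5 livers. Of the 9 adipocyte markers 8 were highest in that liver; the exception was *Cidec*, which fell, with 19.2, 77.6 and 46.7 FPKM in the controls, against 4.99, 9.46 and 1.63 FPKM in the livers labelled med23 ko (−3.24, adjusted p of 0.0161). The list summed to 72.7 to 144.7 FPKM in the controls and to 28.7, 226.4 and 33.8 FPKM in the other livers. In whole tissue, fewer cells of a type and less RNA per cell cannot be told apart. The part that these differences play in the results was not tested.

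In the livers labelled med23 ko, *Igf1* mRNA was 0.484 times its control level, whereas the receptors, *Jak2* and both *Stat5* transcripts had means that were higher by 0.36 to 1.03 on the log2 scale. Only *Stat5b* among these passed the test, which here means a Benjamini-Hochberg adjusted p under 0.05 from limma on log2(FPKM + 0.1) over the 11956 genes whose mean reached 0.5 FPKM. The feedback genes *Socs2* and *Cish* had log2 fold changes of −0.07 and −0.00. All 10 transcripts were above the filter; 1 rose, 1 fell and 8 did not pass. Over all genes tested, 21.1% passed, 11.6% higher and 9.48% lower, so 1 of 10 in each direction was close to the background. Without replicate 2 labelled med23 ko, the library with adipocyte transcripts, 0 of the 10 rose and *Igf1* alone fell. This was not particular to that library. The same was seen without replicate 3 labelled med23 ko, and without replicate 1 none of the 10 passed. Over all genes, 929 of 11958, 990 of 11953 and 750 of 11963 passed without replicates 2, 3 and 1 respectively. With the further condition of a change of more than 2-fold, 1 of the 10 (*Igf1*) was called, against 7.9% of all genes (4.45% higher and 3.45% lower). The median log2 fold change was 0.47 over the 10 transcripts and 0.02 over all genes tested. In 5 of the 10 the 2 groups did not overlap, with 4 higher (*Ghr*, *Prlr*, *Jak2* and *Stat5b*) and 1 lower (*Igf1*). Groups did not overlap in 43.7% of all genes tested, 23.3% higher and 20.4% lower.

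**Figure D1:**
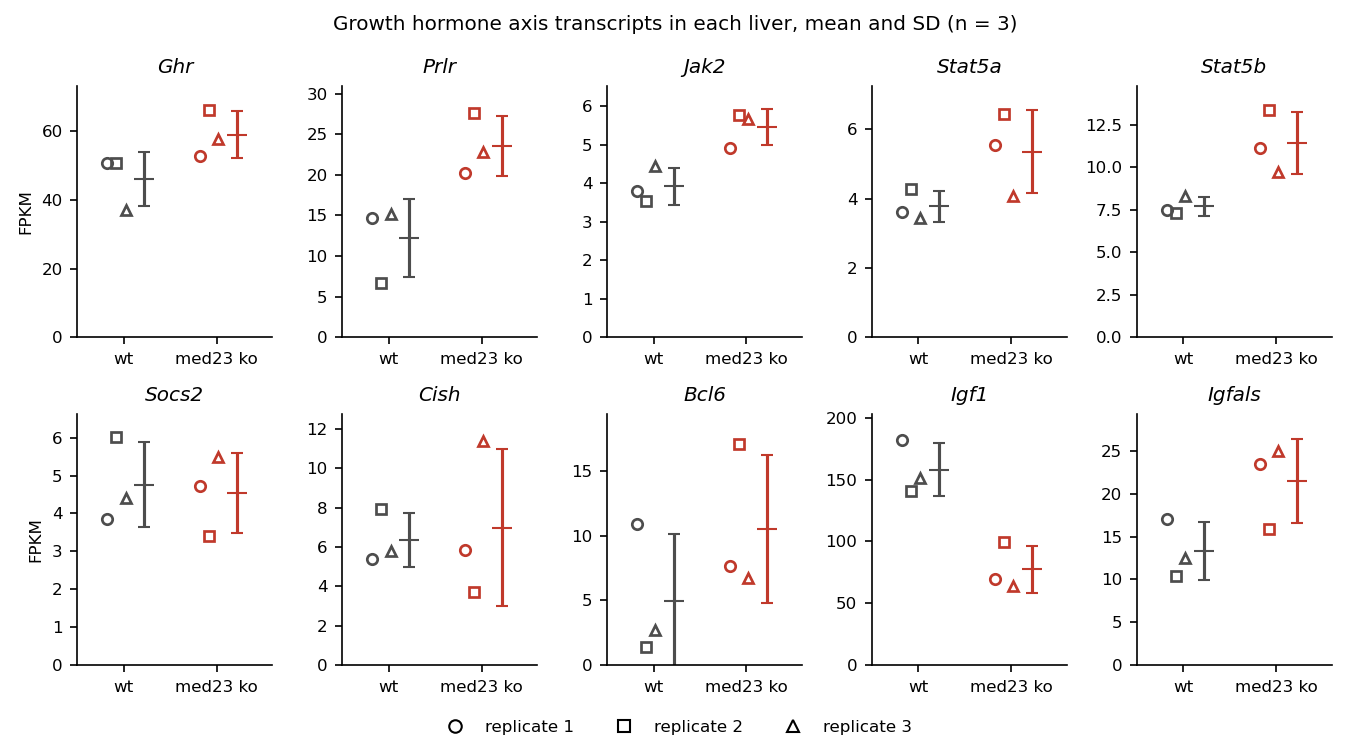
FPKM of the 10 transcripts (vertical axes, each from 0) in the 3 control livers (wt, grey) and the 3 livers labelled med23 ko (red); symbols mark the replicate number, and bars give the mean and SD (n = 3), with the lower bar of *Bcl6* in the controls cut at 0. *Igf1* lay between 140.5 and 182.0 FPKM in the controls and between 63.6 and 99.1 FPKM in the other group, whereas *Socs2*, *Cish* and *Bcl6* overlapped.

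*Ghr* (ENSMUSG00000055737.12, minus strand of mm10 chr15:3317760-3583492) encodes the growth hormone receptor. It had FPKM values of 50.6, 50.6 and 37.1 in the controls, against 52.9, 66.3 and 57.7 in the livers labelled med23 ko. Every liver labelled med23 ko was above every control, but the nearest pair of livers was close. The means were 46.1 ± 7.81 and 59.0 ± 6.81 FPKM (SD, n = 3 in both groups), and the log2 fold change was 0.36 (SE 0.17, 95% interval −0.02 to 0.75), with an adjusted p of 0.153. The exact permutation test (two-sided) had p = 0.1, the smallest that 3 livers against 3 allow.

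*Prlr* (ENSMUSG00000005268.20, plus strand of mm10 chr15:10177238-10349180) encodes the prolactin receptor, which signals through the same kinase and STAT5. It had FPKM values of 14.7, 6.62 and 15.2 in the controls, against 20.3, 27.6 and 22.8 in the livers labelled med23 ko. The groups did not overlap, and control replicate 2 was far below the other controls. The means were 12.2 ± 4.81 and 23.6 ± 3.72 FPKM, and the log2 fold change of 1.03 (SE 0.31, 95% interval 0.31 to 1.75) had an adjusted p of 0.0505, just outside the threshold. Without control replicate 2 the log2 fold change was 0.64 with an adjusted p of 0.0415, and without control replicate 3 it was 1.24 with an adjusted p of 0.0294. With a pseudocount of 1, with a filter at 1 FPKM or with median centring the adjusted p was 0.0473, 0.0482 and 0.0478. It did not pass without control replicate 1 (0.0590), without replicates 1, 2 and 3 labelled med23 ko (0.1002, 0.149 and 0.123), with no filter (0.234), with the replicate block (0.0824), with no trend (0.0667), with robust eBayes (0.0544) or with quantile normalization (0.0525). Of the 15339 exonic bases of *Prlr*, 203 are shared with *Gm21973* on the same strand, so reads from that stretch cannot be assigned with certainty.

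*Jak2* (ENSMUSG00000024789.13, plus strand of mm10 chr19:29251828-29313080) had FPKM values of 3.79, 3.53 and 4.46 in the controls, against 4.92, 5.77 and 5.68 in the livers labelled med23 ko. All 3 livers of the second group were above the controls, and the spread within each group was small. The log2 fold change was 0.47 (SE 0.15, 95% interval 0.12 to 0.82) with an adjusted p of 0.0609. It passed only without control replicate 3 among the 6 left-out libraries (0.56, adjusted p of 0.0327).

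The 2 STAT5 genes are neighbours on chromosome 11. *Stat5b* (ENSMUSG00000020919.11, minus strand of mm10 chr11:100780731-100850724), the main STAT5 gene of hepatocytes, had FPKM values of 7.46, 7.29 and 8.31 in the controls, against 11.1, 13.4 and 9.74 in the livers labelled med23 ko. The controls were tightly grouped and all lay below the other livers. *Stat5b* rose by 0.56 on the log2 scale (SE 0.15, 95% interval 0.20 to 0.91), a fold of 1.47, with an adjusted p of 0.0391. The call held without control replicate 3 (adjusted p of 0.0342) and was lost without control replicates 1 and 2 (0.0845 and 0.0797) and without replicates 1, 2 and 3 labelled med23 ko (0.121, 0.146 and 0.0556), whereas the log2 fold change stayed between 0.44 and 0.66. It was also lost with no filter on low genes (0.112), with no trend (0.0517) and with the replicate number as a block (0.097).

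*Stat5a* (ENSMUSG00000004043.14, plus strand of mm10 chr11:100859351-100885169) had FPKM values of 3.62, 4.28 and 3.43 in the controls, against 5.54, 6.45 and 4.07 in the livers labelled med23 ko. The groups overlapped, since replicate 3 labelled med23 ko was below control replicate 2, and the log2 fold change of 0.47 (SE 0.20, 95% interval 0.02 to 0.93) had an adjusted p of 0.120. The sum of both transcripts was 11.1, 11.6 and 11.7 FPKM in the controls and 16.7, 19.8 and 13.8 FPKM in the other livers (exact two-sided permutation test, p = 0.1). *Stat5b* made up 67.3%, 63.0% and 70.8% of that sum in the controls and 66.8%, 67.4% and 70.5% in the livers labelled med23 ko. The mean share differed by 1.22 percentage points, less than the spread between replicates (67.0% ± 3.88 and 68.3% ± 1.99, SD, n = 3; exact two-sided permutation test, p = 0.8). The coding sequences of the 2 genes are close, so how their shared reads were divided can affect this share, and 72 exonic bases of *Stat5a* overlap *Stat3* on the opposite strand.

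**Figure D2:**
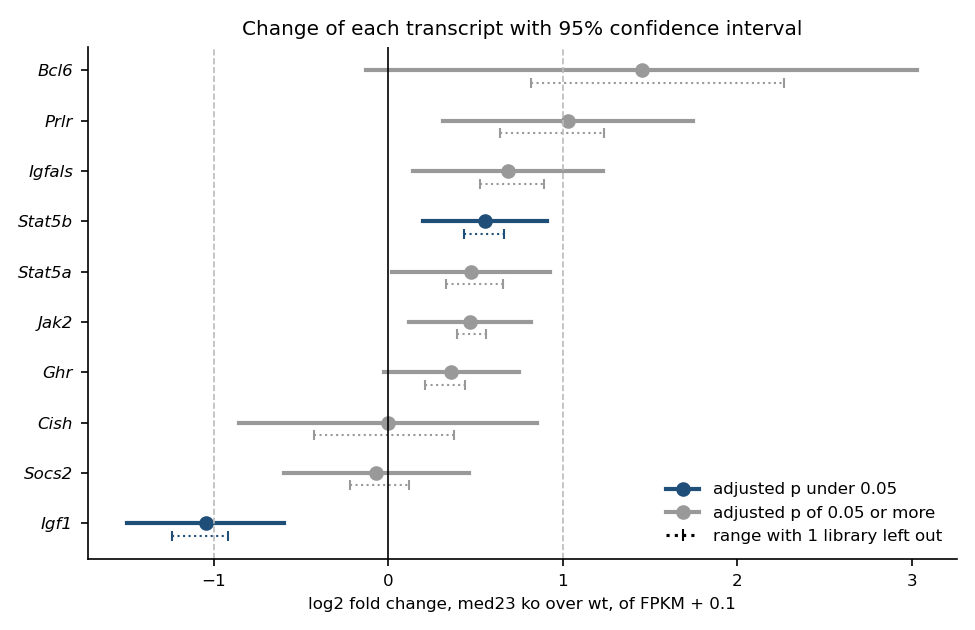
Log2 fold change of FPKM + 0.1, med23 ko over wt (horizontal axis), for each of the 10 transcripts: points with thick bars give the limma estimate and its 95% interval over all 6 livers, dotted bars the range of estimates with 1 library left out, and dashed lines a 2-fold change. *Igf1* at −1.05 and *Stat5b* at 0.56 passed the test, and *Bcl6* had the widest interval, from −0.13 to 3.03.

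Neither feedback gene passed the test. *Socs2* (ENSMUSG00000020027.18, minus strand of mm10 chr10:95385362-95417180), a feedback inhibitor of the growth hormone receptor, had FPKM values of 3.85, 6.01 and 4.40 in the controls, against 4.71, 3.40 and 5.49 in the livers labelled med23 ko. The groups overlapped fully, with a log2 fold change of −0.07 (SE 0.23, 95% interval −0.60 to 0.46) and an adjusted p of 0.851. *Cish* (ENSMUSG00000032578.7, plus strand of mm10 chr9:107296026-107302784), a second inhibitor of the same family, had FPKM values of 5.39, 7.95 and 5.77 in the controls, against 5.84, 3.69 and 11.4 in the livers labelled med23 ko. Its highest and its lowest value both came from livers labelled med23 ko, and the log2 fold change of −0.00 (SE 0.37, 95% interval −0.86 to 0.86) carries an interval that spans nearly 2-fold either way. Its residual SD was above that of 94.1% of the genes tested. With 1 library left out the estimate ran from −0.22 to 0.12 for *Socs2* and from −0.43 to 0.37 for *Cish*. Of the 6419 exonic bases of *Cish*, 740 overlap *Gm17040* and *Gm17041* on the opposite strand. The library kit does not mark strand, so reads from that stretch cannot be told apart.

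*Bcl6* (ENSMUSG00000022508.5, minus strand of mm10 chr16:23965052-23988852) had FPKM values of 10.9, 1.37 and 2.67 in the controls, against 7.69, 17.1 and 6.71 in the livers labelled med23 ko. Control replicate 1 lay among the livers labelled med23 ko, and the other controls were below them. The means were 4.97 ± 5.15 and 10.5 ± 5.75 FPKM, and the log2 fold change of 1.45 (SE 0.69, 95% interval −0.13 to 3.03) had an adjusted p of 0.160. Its residual SD of 1.17 on the log2 scale was above that of 98.7% of the genes tested. Without control replicate 1 the log2 fold change was 2.27 with an adjusted p of 0.026, and without control replicate 2 it was 0.82 with an adjusted p of 0.391; the other left-out libraries gave adjusted p values of 0.207 to 0.384.

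Across the 6 livers, *Socs2* and *Cish* followed a like order that was not the order of the groups. *Cish* ran from replicate 3 labelled med23 ko through control 2, med23 ko 1, control 3 and control 1 down to med23 ko 2. *Socs2* had control 2 first and med23 ko 3 second, and from there the order was the same. The same pair of livers was highest, and med23 ko 2 lowest, for *Onecut1*, which encodes the STAT5 target HNF6 and was singled out after its values were seen: its FPKM was 5.05, 10.7 and 2.91 in the controls, against 4.36, 2.18 and 7.58 in the livers labelled med23 ko. For *Bcl6* the order began with med23 ko 2 and ended with control 2. The ratio of *Bcl6* to *Cish*, also chosen after the values were seen, was 2.02, 0.173 and 0.463 in the controls and 1.32, 4.64 and 0.588 in the other livers (exact two-sided permutation test, p = 0.5). These orders are a description over 6 livers that share their libraries between genes. Med23 ko 2, lowest in *Cish* and highest in *Bcl6*, is also the library with the adipocyte transcripts; its part in these orders was not tested.

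**Figure D3:**
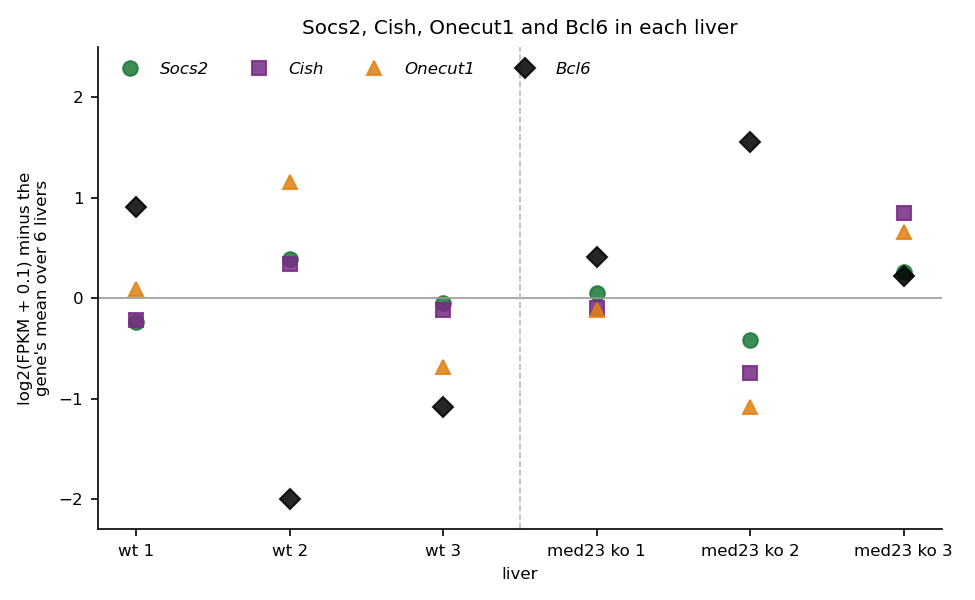
Log2(FPKM + 0.1) minus the mean of the gene over the 6 livers (vertical axis) for *Socs2*, *Cish*, *Onecut1* and *Bcl6* in each liver (horizontal axis; the dashed line parts the 3 control livers from the 3 labelled med23 ko). *Socs2*, *Cish* and *Onecut1* are high in control 2 and med23 ko 3 and low in med23 ko 2, where *Bcl6*, at 17.1 FPKM, is highest; *Bcl6* is lowest in control 2.

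The promoter windows of the 10 genes were searched for the letters that STAT5 is known to bind. STAT proteins bind the palindrome TTCNNNGAA, which reads the same on both strands, and BCL6 binds similar letters. The motif was searched in the RefSeq windows of GRCm38.p6 that run from 250 bases before to 50 bases after each annotated start; it was found in 2726 of 32851 windows (8.3%) and, counted by gene, in 2582 of 27025 genes (9.55%). A gene with several starts has several windows. Of the 10 genes, 9 had windows (*Socs2* had none in the table), and 4 held the motif in at least 1 window (6 of the 17 windows of the 9 genes): *Cish*, *Bcl6*, *Igfals* and *Prlr*. The stretches with the most matches are shown because they carry several copies close together, with the motif in capitals: 30 bases at the start of *Cish* (plus strand of chr9:107296654-107296683, in the 5′ UTR as annotated), and the 250 bases before the downstream start of *Bcl6* (minus strand of chr16:23981284-23981533, outside annotated exons).
Cish start: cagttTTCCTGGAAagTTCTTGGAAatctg
Bcl6 downstream start: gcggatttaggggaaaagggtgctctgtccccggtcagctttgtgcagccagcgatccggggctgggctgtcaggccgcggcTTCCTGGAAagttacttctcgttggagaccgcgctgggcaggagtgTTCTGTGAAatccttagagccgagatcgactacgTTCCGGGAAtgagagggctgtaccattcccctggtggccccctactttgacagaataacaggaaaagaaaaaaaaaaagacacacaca

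The 2 copies in *Cish* begin at the first transcribed base and 11 bases further on. The 3 copies at *Bcl6* begin 168, 122 and 88 bases before the start, and windows with 3 or more copies number 11 of the 32851 (0.0335%), whereas windows with at least 2 number 150 (0.457%). The upstream *Bcl6* start, the *Prlr* start and 2 *Igfals* starts held a single copy each. One is shown for *Bcl6* (minus strand of chr16:23988853-23989102) and one for *Igfals* (plus strand of chr17:24877981-24878230, overlapping an *Igfals* exon), to set a gene with a repressor product beside one with a product in blood.
Bcl6 upstream start: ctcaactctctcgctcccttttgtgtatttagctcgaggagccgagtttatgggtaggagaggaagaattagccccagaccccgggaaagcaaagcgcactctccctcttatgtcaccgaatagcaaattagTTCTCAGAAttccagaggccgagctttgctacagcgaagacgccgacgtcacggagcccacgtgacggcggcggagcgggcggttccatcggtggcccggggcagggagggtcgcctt
Igfals start: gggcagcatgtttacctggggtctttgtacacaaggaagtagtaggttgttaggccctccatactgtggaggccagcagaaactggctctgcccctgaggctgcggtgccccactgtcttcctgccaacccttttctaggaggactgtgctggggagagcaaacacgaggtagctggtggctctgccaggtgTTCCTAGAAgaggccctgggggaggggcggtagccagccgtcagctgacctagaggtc

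No copy lay in the windows of *Ghr*, *Jak2*, *Stat5a*, *Stat5b* or *Igf1*, which says only that these letters are not there; a match is a description of the letters and not a site shown to be bound.

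*Igf1* (ENSMUSG00000020053.18, plus strand of mm10 chr10:87858265-87937042) was the most abundant of the 10 transcripts. It had FPKM values of 182.0, 140.5 and 151.6 in the controls, against 69.6, 99.1 and 63.6 in the livers labelled med23 ko. No liver of the second group reached the lowest control. The means were 158.0 ± 21.5 and 77.4 ± 19.0 FPKM (SD, n = 3 each). *Igf1* fell by 1.05 on the log2 scale (SE 0.19, 95% interval −1.50 to −0.60), with an adjusted p of 0.0115. It stayed on the same side of the threshold with each library left out except replicate 1 labelled med23 ko (−0.98, adjusted p of 0.0535), and the call was also lost with no filter on low genes (adjusted p of 0.0825). The estimate was under 2-fold without that replicate, without control replicate 1 (−0.94) and without replicate 3 labelled med23 ko (−0.92). Endothelial and stellate cell markers were lower in the same livers, 6 of 6 and 2 of 6 respectively, and the 6 stellate markers summed to 27.3 to 32.8 FPKM in the controls and 18.7 to 22.4 FPKM in the other livers. Of the 10 hepatocyte markers 1 was lower and none was higher, where 9.48% of all genes tested were lower and 11.6% higher. The 9 macrophage markers had 0 calls, with sums of 275 to 332 FPKM and 308 to 320 FPKM.

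*Igfals* (ENSMUSG00000046070.9, plus strand of mm10 chr17:24865997-24882010), a partner of IGF1 in blood, had a higher mean in the livers in which *Igf1* was lower. It had FPKM values of 17.0, 10.3 and 12.5 in the controls, against 23.5, 15.8 and 25.0 in the livers labelled med23 ko. The groups overlapped through replicate 2 labelled med23 ko, which was below control replicate 1. The means were 13.3 ± 3.41 and 21.5 ± 4.91 FPKM, and the log2 fold change of 0.69 (SE 0.24, 95% interval 0.14 to 1.23) had an adjusted p of 0.0721. Without control replicate 1 it was 0.0465 (0.88), whereas the other 5 left-out libraries gave 0.0602 to 0.206 and no filter gave 0.264. The ratio of *Igf1* to *Igfals*, formed after the values were seen, was 10.7, 13.6 and 12.1 in the controls and 2.96, 6.26 and 2.55 in the livers labelled med23 ko. The ratio of *Igf1* to *Ghr*, formed in the same way, was 3.60, 2.78 and 4.09 in the controls and 1.32, 1.49 and 1.10 in the other livers. These ratios are a description: *Igf1* was lower and *Ghr* higher in every liver labelled med23 ko, so the second ratio had to separate the groups.

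Which neighbours in level overlapped, per length, differed between the labels, while *Igf1* and then *Ghr* had the highest means in both groups. In the controls *Igf1* stood above *Ghr*, and *Ghr* above the rest, with no overlap between livers; from *Igfals* through *Prlr*, *Stat5b*, *Cish*, *Bcl6*, *Socs2* and *Jak2* to *Stat5a* each neighbour overlapped the next. In the livers labelled med23 ko the ranges of *Igf1* and *Ghr* overlapped, although within each liver *Igf1* was above *Ghr* (ratios of 1.32, 1.49 and 1.10). *Ghr* was then separate from *Prlr*, *Prlr* and *Igfals* overlapped, *Igfals* was separate from *Stat5b*, and all lower neighbours overlapped.

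The genes most like *Igf1* over the 6 livers were *Mup3*, *Pkdcc* and *Stom*, measured by the root mean square difference of centred log2(FPKM + 0.1) values (0.0769, 0.0956 and 0.103). *Mup3*, a major urinary protein gene whose reads may be shared with near-identical copies, had 5586, 4368 and 4370 FPKM in the controls, against 1853, 2786 and 1891 FPKM in the livers labelled med23 ko. None of the other 9 transcripts of the axis was near *Igf1* by this measure; the nearest, *Socs2*, ranked 7539. Near *Socs2* were *Zbtb12* and *Mthfsd* (0.0751 and 0.0973), with *Cish* at rank 1233 (0.286). The nearest to *Bcl6* were *Gabbr2*, *Nr1d1* and *Hcar2* (0.292, 0.536 and 0.551), and *Nr1d1*, which encodes the clock repressor REV-ERBα, had 10.5, 2.82 and 4.39 FPKM in the controls, against 12.6, 13.2 and 5.45 FPKM in the livers labelled med23 ko.

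None of 4 hormone genes was above the filter: *Gh* and *Prl* were listed at 0 in all 6 livers, and *Igf2* and *Ghrl* did not exceed 0.123 and 0.0858 FPKM. Of 13 genes for kinases, adaptors and other STATs that act beside JAK2 and STAT5, 3 rose and 1 fell, with a median log2 fold change of 0.32; over all genes tested 11.6% were higher and 9.48% lower, so 1 of 13 lower was no more than the background. *Src*, a kinase that the growth hormone receptor also engages, had 6.96, 5.03 and 14.2 FPKM in the controls, against 40.5, 37.5 and 34.4 FPKM in the livers labelled med23 ko, and rose by 2.22 on the log2 scale (SE 0.33, adjusted p of 0.00624). The other calls were smaller: *Tyk2*, a JAK family kinase, rose by 0.54 (adjusted p of 0.0219), *Sos1*, which activates RAS, rose by 0.54 (0.0486), and the adaptor *Shc1* fell by 0.55 (0.0191). The call of *Src* held with each library left out but not with no filter on low genes (adjusted p of 0.0739), whereas those of *Tyk2* and *Shc1* were lost without any 1 of the livers labelled med23 ko (adjusted p of up to 0.101 and 0.0803) and that of *Sos1* without any library but control 3 (up to 0.166). *Irs2*, an insulin receptor substrate singled out after its values were seen, had 3.20, 0.409 and 6.72 FPKM against 13.9, 12.8 and 8.15 FPKM, with no overlap and an adjusted p of 0.0762.

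Among 13 inhibitors of cytokine receptor signalling other than *Socs2* and *Cish*, only *Socs5* passed (9.48% of all genes tested were lower), with 6.39, 4.57 and 3.53 FPKM in the controls, against 2.51, 2.95 and 2.60 FPKM in the livers labelled med23 ko (−0.79, adjusted p of 0.042, up to 0.132 with 1 library left out and 0.166 with no filter). The median of this list was 0.01. In the IGF system, 9 of 14 genes were above the filter, with a median of −0.33; 2 rose and 1 fell, beside 11.6% and 9.48% of all genes tested. *Igf2r*, which clears IGF2, and *Insr*, the insulin receptor, rose by 0.74 and 0.62 (adjusted p of 0.0283 and 0.0474), and *Igfbp7* fell by 0.62 (0.0469). Each of these calls was lost when any of 5 of the 6 libraries was left out (adjusted p of up to 0.104, 0.157 and 0.150). The IGF1 receptor gene *Igf1r* was under the filter, at 0.224 to 0.372 FPKM, in every liver.

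Among 7 other reported STAT5 targets, 6 were tested and 2 rose, both past 2-fold, where 11.6% of all genes tested were higher and 4.45% were higher by more than 2-fold. *Bbc3*, which encodes the cell death protein PUMA and is also a p53 target, had 2.80, 1.87 and 3.22 FPKM in the controls, against 9.21, 9.77 and 9.35 FPKM in the livers labelled med23 ko (1.84, SE 0.20, adjusted p of 0.00237). *Pim1*, a survival kinase, had 4.92, 5.16 and 8.25 FPKM and 16.7, 18.9 and 14.8 FPKM (1.47, SE 0.21, adjusted p of 0.00574). Both calls held with each library left out, and that of *Pim1* was lost with no filter on low genes (adjusted p of 0.0611). The remaining 4 did not pass, and the median of the list was 0.26.

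Genes with a sex bias set by growth hormone moved in both directions. Of 15 tested male-biased genes 6 fell and 1 rose, with a median log2 fold change of −0.78; over all genes tested 9.48% were lower and 11.6% higher. *Mup21* had 173.4, 389.2 and 188.3 FPKM in the controls, against 67.7, 69.8 and 38.6 FPKM in the livers labelled med23 ko (−2.04, adjusted p of 0.00877). *Cyp7b1*, an oxysterol hydroxylase, fell by 1.83 (adjusted p of 0.0176), and *Cyp4a12b*, whose reads may be shared with the near-identical *Cyp4a12a*, fell by 1.58 (0.0438). The other genes that fell, outside the rule for named genes, were *Susd4*, *Mup20* and *Cyp2u1*. In the opposite direction, the anion transporter gene *Slco1a1* had 16.3, 15.9 and 10.3 FPKM in the controls, against 43.7, 40.1 and 40.4 FPKM in the livers labelled med23 ko (1.57, adjusted p of 0.00318). *Susd4* passed the filter only through the controls, where it was high, so the counts and the median of this list are a description and no support for a direction. The median is the value of *Selenbp2*, which had 132.2 FPKM in control replicate 2 and at most 3.28 FPKM in the other livers, and whose log2 fold change ran from −2.51 to 1.51 with 1 library left out; the next genes in order were *Cyp4a12a* at −0.84 and *Egfr* at −0.44. The count of 6 fell to 0 with no filter, to 2 without control replicate 1 or 2, and to 1, *Mup21*, without any liver labelled med23 ko.

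Of 26 female-biased genes, 12 were under the filter. Among the 14 tested, 4 rose and 1 fell, with a median log2 fold change of 0.57, against 11.6% higher and 9.48% lower of all genes tested, so 1 of 14 lower was no more than the background. *Ntrk2*, a neurotrophin receptor gene, had 0.394, 0.213 and 0.310 FPKM in the controls, against 3.47, 4.91 and 8.50 FPKM in the livers labelled med23 ko (3.75, adjusted p of 0.00131). *A1bg* had 0.523, 0.326 and 0.704 FPKM and 2.99, 2.90 and 4.34 FPKM (2.53, adjusted p of 0.00275). *Atp6v0d2*, a subunit of the vacuolar proton pump, rose by 2.19 (adjusted p of 0.0145), and *Slc22a26*, outside the rule for named genes, also rose (1.32, adjusted p of 0.0451). The estrogen sulfotransferase gene *Sult1e1* fell by 2.10 (adjusted p of 0.0172, or 0.0603 without replicate 1 labelled med23 ko). *Ntrk2*, *Atp6v0d2* and *Slc22a26* had control means under 0.5 FPKM, and *Sult1e1* a mean under 0.5 FPKM in the livers labelled med23 ko, so these passed the filter only through the group in which they were high; the counts and the median of this list are a description and no support for a direction. The count of 4 fell to 2 without replicate 1 or 3 labelled med23 ko, with no filter and with a filter at 1 FPKM.

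**Figure D4:**
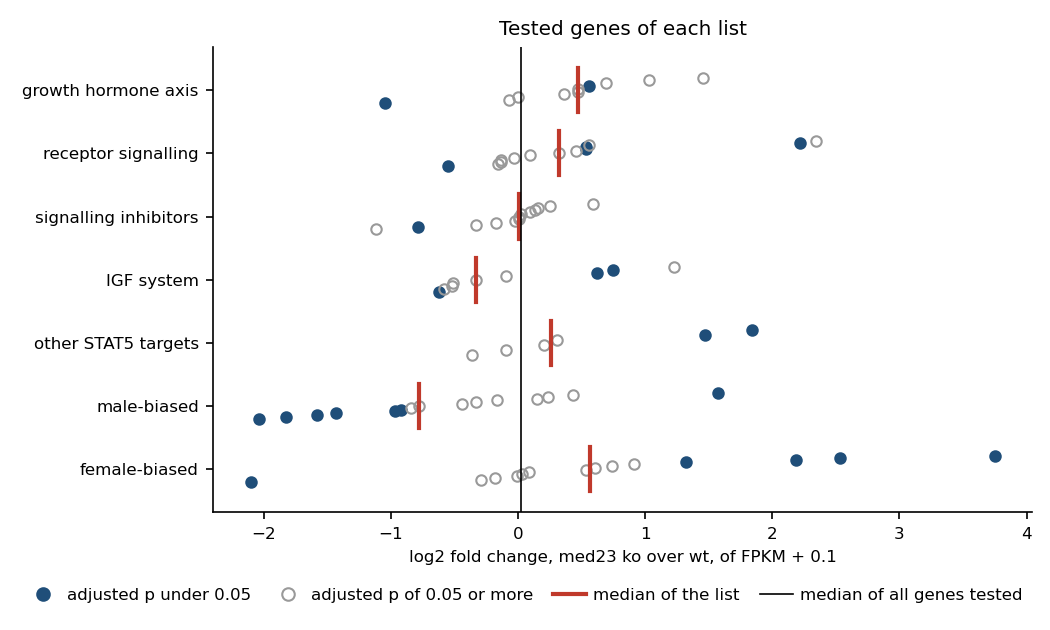
Log2 fold change of FPKM + 0.1, med23 ko over wt (horizontal axis), of each tested gene in the 10 axis transcripts and 6 related lists (vertical axis; filled points passed the test, red lines mark list medians and the black line the median of all genes tested). The male-biased genes had a median of −0.78 with *Slco1a1* at 1.57, and the female-biased genes had a median of 0.57 with *Sult1e1* at −2.10.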

How the data were processed

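Whole-liver RNA had been made into libraries with a kit that does not mark strand. According to the methods and labels, the authors aligned paired reads to mm10 with TopHat and ran Cuffdiff; versions and annotation are not given in the sources used here. The deposited table holds the authors' FPKM for each library, with their fold changes, p-values and group means, which were not used. Low values showed no step from which whole reads could be recovered (the fullest 1% wide bin of ratios held at most 1.62% of low genes), so the depth of each library is unknown (the methods state a median over samples) and the spread between 3 mice is the error used. 

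The 11956 genes whose mean reached 0.5 FPKM were compared as log2(FPKM + 0.1) with limma 3.58.1 in R 4.3.3 (eBayes with a trend, Benjamini-Hochberg adjustment, no block). On simulated data of that size with 200 changed genes, 79 of 90 changed by 2 and 60 of 110 changed by 1 on the log2 scale were called. So were 7 unchanged genes. In the real data 2517 genes passed, which makes the adjusted threshold unlike that of the simulation, so these shares do not give the recovery here. A fold on this scale understates the change of low genes. Single values had exact two-sided permutation tests. The 10 genes and all lists were chosen with earlier results of these data known. Genes named from a list are up to 4 that passed with the largest change, plus the 3 nearest in pattern to *Igf1*, *Socs2* and *Bcl6*; 1 of these is not reported here. Positions are from GENCODE M21. The alternatives tried were other pseudocounts (0.01 and 1), filters (none, or 1 FPKM), median centring, quantile normalization, no trend, robust eBayes, a replicate block and each library left out. Marker lists with no call were those of macrophages (9 genes tested), bile duct cells (5) and neutrophils (4); of lymphocyte markers 0 were above the filter, and of 5 tested adipocyte markers 1 was lower. Python 3.11.15, pandas 2.3.3, scipy 1.17.1, numpy 2.4.6 and matplotlib 3.10.9 were used otherwise.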

Additional observations from a re-analysis of the deposited data

How the results depend on the processing

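Of the 10 transcripts 1 was called higher; this became 2 with a pseudocount of 1, with a filter at 1 FPKM and with median centring (*Prlr* joined *Stat5b*), and 0 with no filter, with no trend and with the replicate block. With 1 library left out it ran from 0 to 3. The 1 called lower, *Igf1*, became 0 with no filter, and 0 to 1 with 1 library left out. The 1 past 2-fold became 0 with no filter, 2 with a filter at 1 FPKM and 2 with median centring, and 0 to 2 with 1 library left out. Without the filter 24346 genes were tested, and the adjusted p of *Igf1* was 0.0825 and that of *Stat5b* 0.112. All calls numbered 2517; they numbered 522 with no filter, 1423 with the replicate block and 750 to 3179 with 1 library left out (750 without med23 ko 1, 929 without med23 ko 2 and 990 without med23 ko 3). The sign of *Socs2* turned without control replicate 2 (0.11) and without med23 ko replicate 2 (0.12), in a range of −0.22 to 0.12. That of *Cish* turned with a pseudocount of 1 (0.013), and ran from −0.43 to 0.37 with 1 library left out. *Med23* turned without control replicate 3 (0.017), in a range of −0.22 to 0.017. The cause was not tested. The *Stat5b* share differed by −0.79 to 3.08 percentage points with 1 library left out. Livers with the same replicate number did not deviate together over the genes tested (r of −0.0222, −0.0459 and −0.124). This does not settle whether they were paired, since a small shared effect could be missed, and the labels give only a number. With the replicate block *Igf1* had an adjusted p of 0.0288, *Stat5b* 0.097 and the difference of the *Stat5b* share was 1.22. Median centring moved the share of calls that were higher from 55.0% to 52.0%, and quantile normalization to 49.1%. Where 1 library of a group is left out, the spread is pooled over both groups.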
